A study of Homo sapiens with 9 samples.

Results

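The nuclear factor I family has 4 genes, NFIA, NFIB, NFIC and NFIX, and the mRNAs of all 4 were counted in RNA recovered with guidance receptors from SH-SY5Y cells. The family was chosen by a measured value: summed over the DCC pulldown libraries, NFIB was the third most counted of the 42785 genes listed, and its 3 relatives came with it. SH-SY5Y is a human neuroblastoma line of sympathetic origin, and all libraries came from this 1 line. Lysate was incubated with magnetic beads carrying a mouse antibody to DCC, the Netrin-1 receptor (DCC-IP, 3 libraries), or a rabbit antibody to Nrp1, a Sema3A receptor (Nrp1-IP, 3 libraries), and the whole lysate was sequenced beside them (Input, 3 libraries). The comparisons ask which mRNAs are recovered with each receptor. No pulldown with a control antibody was analysed here. All 9 cDNA libraries were amplified by a PCR method made for single cells. The study's methods state in general that experiments had independent biological replicates, but neither they nor the labels say which cultures these libraries came from, so each p-value measures the spread between these libraries, part of which may be technical.

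NFI proteins are transcription factors that bind DNA as dimers, with one another in any pairing, through a conserved amino-terminal domain, and they activate or repress depending on the promoter. In the nervous system they are best known for the switch of neural progenitors from making neurons to making glia and for the forebrain commissures. Their mRNAs are measured here as molecules recovered with a receptor, which is a different property from the activity of the proteins.

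Each library had 8838296 to 11055895 reads assigned to genes, and 6652 to 12240 genes had at least 1 count. MAP1B, which encodes a microtubule-associated protein, took 49.6%, 52.1% and 40.3% of all counts in the DCC-IP libraries, between 1.58% and 2.44% in Nrp1-IP and between 1.87% and 2.25% in Input. The value of every other gene in DCC-IP therefore depends on how libraries are scaled. Levels are given in CPM, the count of a gene scaled to a common library total, after TMM scaling over the 9 libraries, and fold changes on the log2 scale come from edgeR's quasi-likelihood fit to the 6 libraries of a comparison, with p-values adjusted over all genes tested (Benjamini-Hochberg) and called at 0.05. A limit of 3 counts corresponds to 0.271 to 0.339 CPM before TMM scaling, depending on the library, and covers counting error only. Levels are compared within a gene across libraries, not between genes, because transcript lengths were not used.

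The labelled cell type was checked against markers. Of 14 sympathetic neuroblastoma markers, 6 were above 3 counts in all 3 Input libraries. ISL1, a LIM-homeodomain factor of sympathetic and motor neurons, had the most Input counts (7177), followed by CHGB, a secretory granule protein (699). TH, the first enzyme of catecholamine synthesis, had no count in any Input library. Of 12 glial and mesenchymal markers, 7 had no count in any Input library, GFAP, S100B and SOX10 among them, and the summed level of the list ran from 0.516 to 112 CPM in Input, from 4.07 to 10.9 in DCC-IP and from 3.93 to 10.7 in Nrp1-IP. The highest Input sum came from VIM, which had 988 Input counts, 912 of them in Input 2. NFIB measured 17772, 18479 and 16665 CPM in Input 1, 2 and 3, so its highest Input value was in the same library, and the part of these markers in the NFIB level was not tested.

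NFIB, a regulator of lung and forebrain maturation that is amplified in small cell lung cancer, was the member with nearly all counts of the family. It took between 97.4% and 99.0% of the family's reads in each of the 9 libraries. The raw counts were 78166, 75986 and 113174 in DCC-IP 1, 2 and 3. With Nrp1 they were 84641, 88158 and 104075, and the lysate gave 137765, 154969 and 132604. The 3 Input libraries thus held more NFIB reads than any pulldown library, although NFIB ranked higher in DCC-IP.

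The rank that chose the family is set by all the other genes of a library as well as by NFIB. NFIB ranked 4, 3 and 2 among all genes in DCC-IP 1, 2 and 3, between 13 and 17 in the Nrp1-IP libraries and between 8 and 13 in the Input libraries. Summed over each group its place was 9 in Input, 15 with Nrp1 and 3 with DCC. Just above it in the DCC-IP sums (267326 counts for NFIB) stood SBNO1, a nuclear helicase-family regulator, with 370815 counts. Just below stood USP22, the deubiquitinase of the SAGA complex, with 240177. MAP1B, in first place, held 15407570 counts, and SOX4, a progenitor transcription factor, was in place 5 with 221318. These values define the choice and carry no test.

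In CPM, NFIB measured 8838, 6082 and 7824 in DCC-IP 1, 2 and 3, a mean of 7581 ± 1394 (SD, n = 3). It measured 7914, 8119 and 7811 in Nrp1-IP, a mean of 7948 ± 157 (SD, n = 3). In Input the mean was 17639 ± 914 (SD, n = 3). On this scale all 6 pulldown libraries lay below all 3 Input libraries, although DCC-IP overlapped Input once MAP1B was left out of the totals, the 2 receptors overlapped, and the spread was widest in DCC-IP, where the coefficient of variation was 18.4% against 1.97% in Nrp1-IP and 5.18% in Input.

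**Figure D1:**
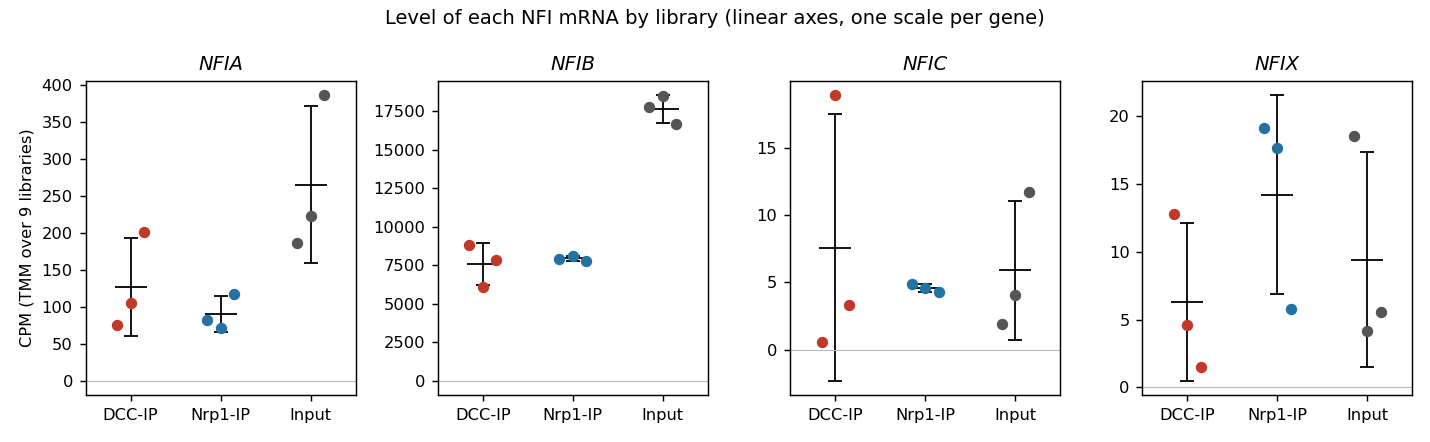
TMM-scaled CPM of each NFI mRNA (linear vertical axes, a separate scale per gene) in the DCC-IP, Nrp1-IP and Input libraries; each point is 1 library, the long bar is the mean and the whiskers are 1 SD (n = 3). With TMM scaling NFIB shows 6 pulldown libraries between 6082 and 8838 and 3 Input libraries between 16665 and 18479 (with MAP1B left out of the totals DCC-IP overlaps Input), while the NFIC and NFIX points overlap between all groups.

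Nrp1-IP against Input is the comparison that the choice of the family did not use. NFIB fell by 1.07 on the log2 scale (SE 0.19, adjusted p = 0.0266, edgeR's quasi-likelihood test), and it was lower in 3 of 3 Nrp1-IP libraries than in any Input library. It was the 1 member of 4 called, against 4.97% of all 6501 genes tested (1.94% higher and 3.03% lower). NFIA and NFIB were the 2 members whose libraries did not overlap, both lower, against 32.1% of all genes (19.4% higher and 12.7% lower). NFIB passed the threshold in all 7 alternative fits that kept every library, with log2 fold changes from -1.25 to -0.68. It passed in 1 of the 6 fits that left out a library: the adjusted p was 0.181, 0.207 and 0.142 without Nrp1-IP 1, 2 and 3, 0.0540 and 0.0549 without Input 1 and 2, and 0.00733 without Input 3 (edgeR), while the log2 fold change stayed between -1.26 and -1.06.

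NFIA, which drives the onset of gliogenesis in the spinal cord and is needed for the corpus callosum, was the next most counted member. Its raw counts were 1445, 1875 and 3075 in Input 1, 2 and 3, 873, 773 and 1570 with Nrp1, and 662, 1312 and 2908 with DCC. The corresponding CPM values were 74.9, 105 and 201 in DCC-IP (127 ± 65.9, SD, n = 3), 81.6, 71.2 and 118 in Nrp1-IP (90.2 ± 24.5, SD, n = 3) and 186, 224 and 386 in Input (265 ± 106, SD, n = 3). Library 3 was the highest of its group for each antibody and for Input, and it was also the library of its group with the most genes detected. All Nrp1-IP values lay below all Input values, whereas the highest DCC-IP value lay above the lowest Input value.

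The log2 fold change of NFIA in Nrp1-IP over Input was -1.50 (SE 0.41), and it did not pass the test (adjusted p = 0.0817, edgeR). It passed in 3 of the 7 alternative fits that kept every library, among them DESeq2 (-1.68, adjusted p = 0.00290) and edgeR with no filter on low counts (-1.62, adjusted p = 0.00257), and in none of the 6 that left out a library. Of all genes tested, 14.5% had a lower fold change than NFIA and 21.4% a lower one than NFIB.

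NFIX, a regulator of foetal muscle genes and of neural stem cell quiescence, was counted at 22 to 205 reads per library. The counts were 144, 35 and 44 in Input 1, 2 and 3, 205, 192 and 77 with Nrp1, and 113, 58 and 22 with DCC. In CPM the means were 9.43 ± 7.95 for Input, 14.2 ± 7.34 for Nrp1-IP and 6.31 ± 5.81 for DCC-IP (SD, n = 3 each). Every group contained libraries that differed by more than 3-fold, from 3.32-fold in Nrp1-IP to 8.40-fold in DCC-IP, and the 3 groups overlapped. In Nrp1-IP over Input the log2 fold change was 0.64 (SE 0.76, adjusted p = 0.690, edgeR).

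NFIC, known for its part in tooth root formation, had the fewest reads. There were 15, 34 and 93 counts in Input 1, 2 and 3, 52, 50 and 57 with Nrp1, and 5, 236 and 48 with DCC. The 5 counts of DCC-IP 1 have an exact 95% Poisson interval of 1.62 to 11.7, which covers counting error only and does not reach the 236 of DCC-IP 2. In CPM, DCC-IP spanned 0.565 to 18.9, a ratio of 33.4, Input spanned 1.94 to 11.7, a ratio of 6.04, and Nrp1-IP spanned 4.28 to 4.86, a ratio of 1.14. The mean was 5.89 ± 5.13 for Input, 4.58 ± 0.293 for Nrp1-IP and 7.59 ± 9.88 for DCC-IP (SD, n = 3 each). In Nrp1-IP over Input the log2 fold change of NFIC was -0.32 (SE 0.76, adjusted p = 0.861, edgeR). Differences of NFIC and NFIX between groups were not detectable against the spread of the libraries.

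DCC-IP against Input used the libraries that chose NFIB, so its value there is a description. The log2 fold change of NFIB was -1.10 (SE 0.24), and with TMM scaling its 3 DCC-IP libraries lay below its 3 Input libraries. For NFIA it was -0.86 (SE 0.57, adjusted p = 0.444), for NFIC 0.58 (SE 1.36, adjusted p = 0.849) and for NFIX -0.58 (SE 1.07, adjusted p = 0.805). None of NFIA, NFIC and NFIX was called by edgeR, none had an unadjusted p under 0.05 in it, and DESeq2 called none. NFIA was lower in DCC-IP than in the Input library of the same number in 3 of 3 pairs (CPM after TMM scaling). With MAP1B left out of the totals and no TMM scaling it was lower in pair 1 (119 against 138) but higher in pair 2 (248 against 191) and pair 3 (470 against 355). With TMM scaling and the replicate number as a block, the log2 fold change of NFIA was -0.99 (SE 0.30, unadjusted p = 0.0127, adjusted p = 0.0830, edgeR). In 1 fit of all 9 libraries it was -1.06 (unadjusted p = 0.0487, adjusted p = 0.186, edgeR). Of all 6223 genes tested, 4.98% were called (1.46% higher, 3.52% lower), and 715 genes in place of 310 were called when the replicate number was a block. NFIB alone of the 4 did not overlap, against 33.7% of all genes (17.1% higher, 16.6% lower).

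**Figure D2:**
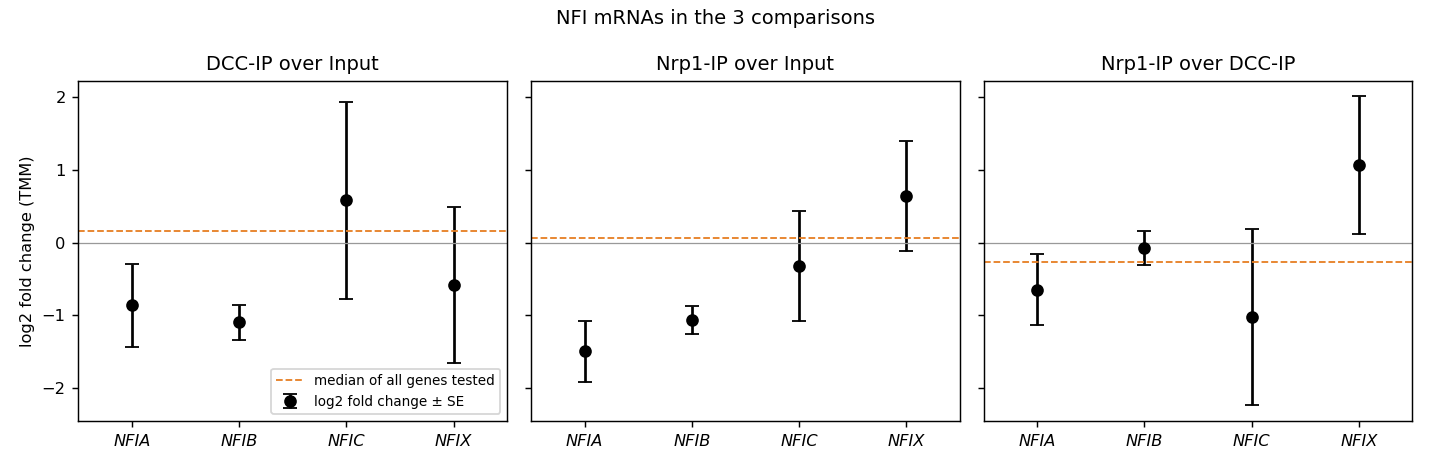
Log2 fold change of each NFI mRNA in the 3 comparisons (vertical axis, TMM scaling in edgeR); points are estimates, whiskers are 1 SE, the dashed line is the median of all genes tested. In Nrp1-IP over Input, NFIB (-1.07) and NFIA (-1.50) lie below the median of 0.06, and the whiskers of NFIC and NFIX are several times as long as those of NFIB.

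The fold change of NFIB in DCC-IP over Input depended on the scaling. It was -1.10 with TMM, -1.19 with RLE, -0.80 with library size alone and 0.09 with library size after MAP1B was taken out of the table. The median of all genes tested was 0.16, 0.00, 0.48 and 1.37 under the same scalings. A change of scaling moves all genes nearly alike, so the distance from the median is close to fixed by construction: for NFIB it was between -1.28 and -1.19. NFIA and NFIX also changed sign once MAP1B was taken out, to 0.30 and 0.64, at -1.07 to -1.02 and -0.80 to -0.53 from the median. NFIC lay 0.31 to 0.42 above the median, but its fold change was -1.32 without DCC-IP 2 and -0.46 with the replicate block.

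With MAP1B left out of the library totals and no TMM scaling, NFIB stood at a CPM of 14092, 14350 and 18287 in DCC-IP 1, 2 and 3 (15576 ± 2351, SD, n = 3) and of 13198, 15765 and 15289 in Input (14750 ± 1366, SD, n = 3). On this scale DCC-IP and Input overlapped. Nrp1-IP, at 8934, 8970 and 9668 (9191 ± 414, SD, n = 3), lay below both. NFIA on the same scale measured 138, 191 and 355 in Input 1, 2 and 3, 92.1, 78.7 and 146 with Nrp1, and 119, 248 and 470 with DCC, so that Nrp1-IP 3 then overlapped Input 1. For NFIA this overlap was also present with MAP1B kept and no TMM scaling. A lower share of reads in a pulldown cannot be told apart from a higher recovery of other mRNAs, since no spike-in sets an absolute scale.

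**Figure D3:**
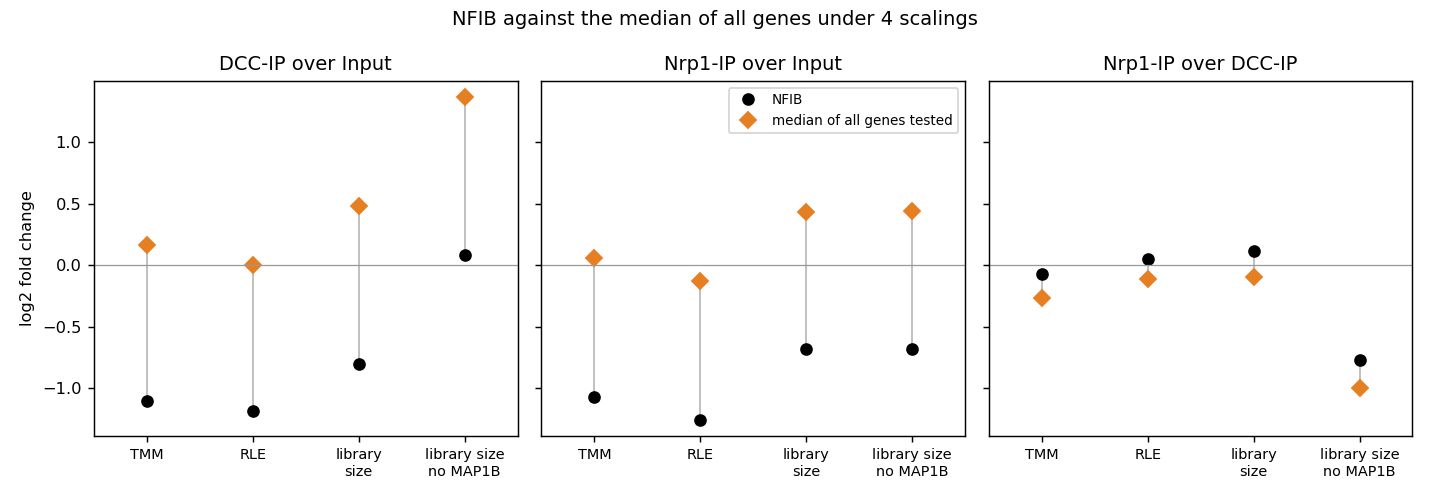
Log2 fold change of NFIB (circles) and the median of all genes tested (diamonds) in 3 comparisons under 4 scalings of the libraries. In DCC-IP over Input NFIB moves from -1.19 to 0.09 with the scaling and the median moves with it, as a change of scaling shifts all genes nearly alike, and in Nrp1-IP over Input NFIB lies below 0 under all 4.

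Nrp1-IP against DCC-IP asks whether the receptors differ. NFIB, again a description, had a log2 fold change of -0.07 (SE 0.23), and its libraries overlapped. With MAP1B taken out the value was -0.77, at 0.16 to 0.23 above the median of all genes under the 4 scalings. NFIA had a log2 fold change of -0.65 (SE 0.49, adjusted p = 0.582), NFIC -1.03 (SE 1.21, adjusted p = 0.773) and NFIX 1.07 (SE 0.94, adjusted p = 0.666). With TMM scaling and all 6 libraries, edgeR called none of NFIA, NFIC and NFIX, against 3.65% of all 6439 genes (2.56% higher, 1.09% lower). In that fit none of them had an unadjusted p under 0.05, and DESeq2 called none. With library size alone and MAP1B taken out, NFIA was -1.41 (unadjusted p = 0.0316, adjusted p = 0.151, edgeR). Without DCC-IP 1, NFIX was 2.23 (unadjusted p = 0.0303, adjusted p = 0.235, edgeR). With TMM scaling no member's libraries were apart, against 26.4% of all genes (13.4% higher, 13% lower). These misses do not show that the receptors recover the NFI mRNAs alike, since the SE of NFIA, NFIC and NFIX ran from 0.49 to 1.21.

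USP22, SBNO1 and SOX4, near NFIB in the DCC-IP order, were chosen on the same DCC-IP counts. By mean CPM after TMM scaling, SOX4 was, like NFIB, highest in Input, and USP22 and SBNO1 were not. USP22 averaged 18442 CPM in Input, 29464 with Nrp1 and 6766 with DCC, so on this scale its DCC mean lay below Input as that of NFIB did. SOX4 averaged 11661 CPM in Input, 3458 with Nrp1 and 6861 with DCC. SBNO1 averaged 4422 CPM in Input, 2950 with Nrp1 and 10809 with DCC. By mean on this scale SBNO1 was highest in DCC-IP, USP22 in Nrp1-IP, and NFIB and SOX4 in Input. With MAP1B left out of the totals the NFIB mean was highest in DCC-IP (15576 against 14750 in Input). The neighbours moved as well. With library size alone and MAP1B taken out, the log2 fold change of SOX4 in DCC-IP over Input was 0.48. That of USP22 was -0.14 and that of SBNO1 was 2.61.

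Ratios between members within a library do not depend on any scaling. The log2 ratio of NFIB to NFIA counts, with 0.5 added to each count, was 6.57, 6.37 and 5.43 in Input (mean 6.12 ± 0.610, SD, n = 3), 6.60, 6.83 and 6.05 with Nrp1 (6.49 ± 0.402) and 6.88, 5.86 and 5.28 with DCC (6.01 ± 0.811). Nrp1-IP minus Input was 0.37, and an exact two-sided permutation test gave p = 0.5. Library 3 had the lowest ratio of NFIB to NFIA in all 3 groups.

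The log2 ratio of NFIB to NFIX averaged 11.2 ± 1.14 in Input, 9.31 ± 0.943 with Nrp1 and 10.7 ± 1.47 with DCC (SD, n = 3 each), and Nrp1-IP minus Input was -1.87 (exact permutation p = 0.2). That to NFIC averaged 11.9 ± 1.34 in Input, 10.7 ± 0.0854 with Nrp1 and 11.1 ± 2.73 with DCC, and Nrp1-IP minus Input was -1.16 (exact permutation p = 0.4). Adjusted over the 3 ratios, each p was 0.5, and 3 libraries against 3 cannot give an exact p below 0.1. A change in the mix of NFI mRNAs between lysate and Nrp1-IP was not detectable.

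**Figure D4:**
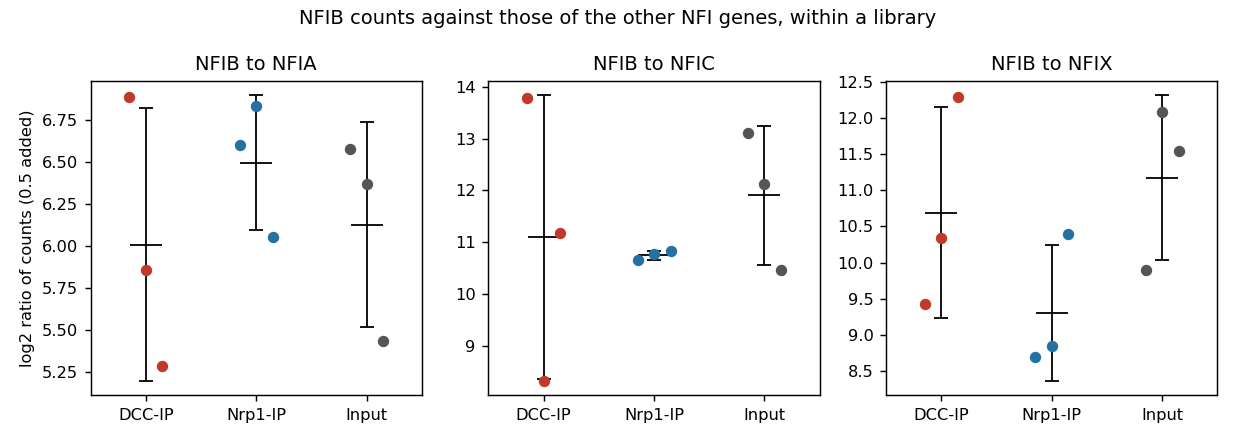
Log2 ratio of NFIB counts to NFIA, NFIC and NFIX counts within each library (0.5 added to each count); points are libraries, the long bar is the mean and whiskers are 1 SD (n = 3). The groups overlap in all 3 panels, and the ratios to NFIC run from 8.33 to 13.8 in DCC-IP but from 10.7 to 10.8 in Nrp1-IP.

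Across the 9 libraries, the mRNAs whose log2 CPM followed NFIB most closely, among 7627 others that passed the filter on low counts, were MPC2 (Pearson r = 0.993), TTI2 (0.983), EIF5AL1 (0.978), NADK2 (0.977) and CAPZA1 (0.975). The points share libraries and one scaling, and the values are a description. MPC2 encodes a subunit of the mitochondrial pyruvate carrier, TTI2 a partner of the kinase chaperone TELO2, NADK2 the mitochondrial NAD kinase and CAPZA1 an actin-capping subunit. EIF5AL1 is a near-identical copy of EIF5A, so its reads are uncertain. With TMM scaling, the scale on which they were picked, these 5 mRNAs were high in all 3 Input libraries and low in both pulldowns, as NFIB was. MPC2 averaged 500 CPM in Input, 123 with Nrp1 and 122 with DCC, and CAPZA1 averaged 14891, 2689 and 2961. With MAP1B left out of the totals and no TMM scaling, NFIB was not lower in DCC-IP than in Input (means of 15576 and 14750).

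Among the family, NFIA had a correlation with NFIB of 0.714, NFIX of 0.0769 and NFIC of -0.141 over the same 9 libraries, beside a median of 0.0368 over all genes. MAP1B had -0.439. The list of most similar mRNAs rested on the measure: with Spearman's rho, or with library size as the only scaling, 1 of the 5 was shared.

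**Figure D5:**
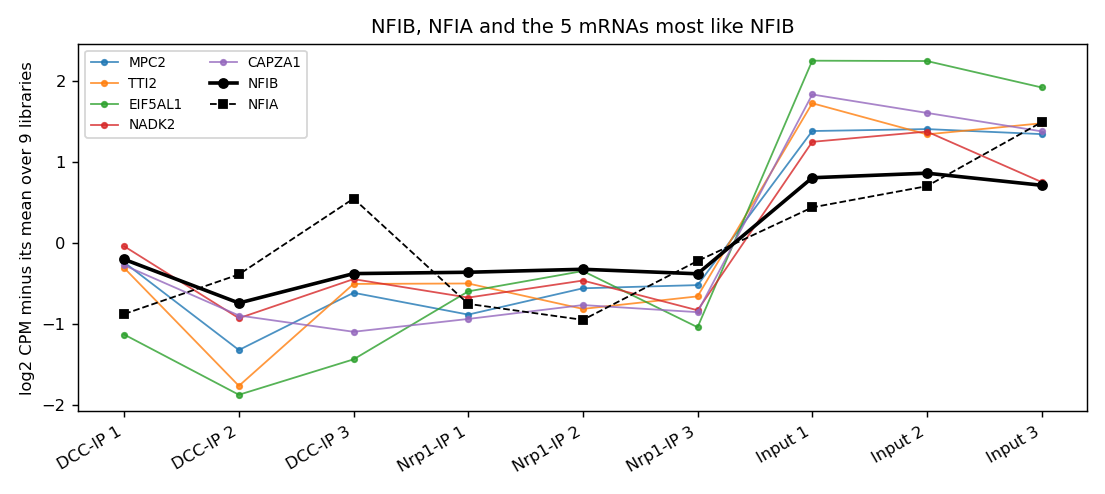
Log2 CPM minus its mean over the 9 libraries for NFIB (thick line), NFIA (dashed) and the 5 mRNAs most correlated with NFIB; lines join libraries to guide the eye and carry no order. With TMM scaling the 3 Input libraries lie above all pulldown libraries for NFIB and the 5 mRNAs, whereas NFIA in DCC-IP 3 lies above NFIA in Input 1.

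Genes that NFI proteins are known to regulate in neural cells were mostly at 0, as were most genes listed. Of a list of 17, among them the astrocyte genes GFAP, ALDH1L1 and APCDD1, 13 had no count in any DCC-IP library, 11 in any Nrp1-IP library and 11 in any Input library. Of all 42785 genes, 70.2%, 67.1% and 66.2% had no count in the same groups. EZH2, a histone methyltransferase, and CDH2, N-cadherin, were the 2 that passed the filter in a comparison, and neither was called in any of the 3 by edgeR or DESeq2 or had an unadjusted p under 0.05 in edgeR. CDH2 had 20, 33 and 178 counts in Input 1, 2 and 3, 1, 14 and 36 with Nrp1 and 5, 14 and 164 with DCC, with library 3 highest in each group. EZH2 had 19, 19 and 4 in Input, 13, 34 and 31 with Nrp1 and 0, 2 and 65 with DCC. Their 2 log2 fold changes had a median of -0.36 in DCC-IP over Input, -1.17 in Nrp1-IP over Input and -0.70 in Nrp1-IP over DCC-IP, beside 0.16, 0.06 and -0.27 for all genes tested. Of 7 partners and upstream regulators, none passed the filter. SOX9, which induces NFIA in the spinal cord and stands in both lists, had 79 Input counts, 75 of them in Input 3, and PAX6, a progenitor factor, had 20. NFIB had many reads in Input, where GFAP, S100B, ALDH1L1 and APCDD1 had no count and CDH2 had 231. The share of the list at 0 in Input was close to that of all genes, so these zeros do not set the NFI targets apart.

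NFIB was not the only developmental transcription factor with many counts. Of 26 others in a list, 11 were tested in DCC-IP over Input, 12 in Nrp1-IP over Input and 13 in Nrp1-IP over DCC-IP. In Nrp1-IP over Input 1 rose and 2 fell, against 1.94% and 3.03% of all genes tested, and the median log2 fold change of the 12 was -1.44 beside 0.06 for all genes. SOX11 and SOX4, related high-mobility-group factors of immature neurons, fell by 1.48 (SE 0.25, adjusted p = 0.0218, edgeR) and by 1.68 (SE 0.35, adjusted p = 0.0411, edgeR). TCF4, a basic helix-loop-helix factor, rose by 1.59 (SE 0.26, adjusted p = 0.0217, edgeR). FOXP1, a forkhead factor and the third most counted of the list in Input (92272), did not pass, with 3283 CPM in Nrp1-IP against 3810 in Input (-0.12, adjusted p = 0.804, edgeR). Like NFIB, these factors passed in few of the 6 fits that left out a library: SOX11 in 2, SOX4 in 1 and TCF4 in 1, with no change of sign.

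In DCC-IP over Input, 1 of the 11 factors rose and 1 fell, against 1.46% and 3.52% of all genes tested, with a median of -0.73 beside 0.16 for all genes. TCF4 rose by 2.26 (SE 0.33, adjusted p = 0.00884, edgeR), with 14017, 15889 and 12260 counts in DCC-IP against 2065, 2250 and 2305 in Input. MEIS1, a homeobox factor, fell by 2.41 (SE 0.49, adjusted p = 0.0318, edgeR), and its 3 Input libraries held 17953, 15465 and 5748 counts. Over the 6 fits without a library TCF4 passed in 2 and MEIS1 in 1, again with no change of sign. In Nrp1-IP over DCC-IP, 1 of the 13 fell (1.09% of all genes tested), SOX11 by 1.24 (SE 0.28, adjusted p = 0.0463, edgeR), which passed in none of the 6 fits without a library and was not called by DESeq2. The median of the 13 was 0.45 beside -0.27 for all genes.

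Transcription factor mRNAs with a higher level in both pulldowns than in Input were also found, TCF4 and ISL1 among them. Among the sympathetic markers, 7 were tested in DCC-IP over Input and 8 in Nrp1-IP over Input, and ISL1 was the 1 called in each, against 4.98% and 4.97% of all genes tested. The markers tested had a median log2 fold change of -0.90 and -0.92 in these comparisons, beside 0.16 and 0.06 for all genes. The rise of ISL1 was thus not that of the list. ISL1 rose by 3.10 (SE 0.42, adjusted p = 0.00800) in DCC-IP and by 2.04 (SE 0.27, adjusted p = 0.0119) in Nrp1-IP over Input. It averaged 296 CPM in Input, 1140 with Nrp1 and 2468 with DCC. In the fits without a library ISL1 passed in 3 of 6 for DCC-IP and in 2 of 6 for Nrp1-IP. None of 6 sympathetic markers tested in Nrp1-IP over DCC-IP was called by edgeR or DESeq2, and 1 had an unadjusted p under 0.05 in edgeR. Of the glial and mesenchymal markers, 2, 3 and 2 were tested in the 3 comparisons, and none was called by edgeR or DESeq2 or had an unadjusted p under 0.05 in edgeR.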

How the data were processed

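RNA was recovered by immunoprecipitation with DCC or Nrp1 antibodies, or taken from whole lysate, in 3 libraries each. Per the submitters' processing notes and the study's methods, the authors made FASTQ files with bcl2fastq, mapped reads with HISAT2 2.1.0 (build hg19) and counted them per gene with HTSeq 0.11.0. The deposited values are raw counts per gene. The gene annotation used and the strand option of HTSeq are not given in the sources used here, so reads of a gene and of an overlapping antisense transcript cannot be told apart. The 5 HTSeq summary lines, which hold 68.7% to 70.8% of reads, were left out.

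Counts were fitted in edgeR 4.0.16 (R 4.3.3) with a minimum count of 10 in filterByExpr, TMM factors (0.726 to 1.39 over the 9 libraries) and glmQLFTest on the 6 libraries of each comparison, as the study's methods name edgeR and a false discovery rate of 0.05. An SE is the absolute log2 fold change divided by the square root of F. DESeq2 1.42.0, other scalings, no filter, 1 fit of all 9 libraries, a replicate block and leaving out each library were alternatives. CPM for correlations had a prior count of 2. Ratios were compared with exact permutation tests in scipy 1.17.1. The fit was tested on simulated counts in which 200 genes changed by 3 on the log2 scale. With the spread estimated from these libraries it recovered 42% of them in DCC-IP over Input, 82.5% in Nrp1-IP over Input and 61% in Nrp1-IP over DCC-IP. Of the calls, 8.70%, 7.30% and 2.40% were wrong. A gene that was not called may therefore have changed.

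Samples were grouped by their titles. Whether equal replicate numbers pair libraries was checked by the correlation of deviations from the group means: 0.124, 0.195 and 0.440 for DCC-IP with Input, 0.237, -0.00398 and 0.384 for Nrp1-IP with Input, and 0.106, 0.0840 and 0.361 for Nrp1-IP with DCC-IP. All 3 exceeded 0.1 in the first, so the numbers were taken as pairing there. This is weak ground, since Input 1 correlated with DCC-IP 2 at 0.139, above its 0.124 with DCC-IP 1. Replicate numbers entered the fits with a replicate block and the ratio tests within replicate numbers. The pairs of NFIA in DCC-IP and Input used them too.

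The named genes were the members, MAP1B, the 2 genes above and the 2 below NFIB in DCC-IP counts, the 5 genes most correlated with NFIB, and from each list the genes called and the 2 with the most Input counts; other genes were named after their values were seen. Members and lists were chosen with earlier results of these data known. Gene symbols are those of the count tables, and no coordinates are given because the gene table at hand is of another build.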

Additional observations from a re-analysis of the deposited data

How the results depend on the processing

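With edgeR, 310 genes were called in DCC-IP over Input (91 higher, 219 lower), 323 in Nrp1-IP over Input (126 higher, 197 lower) and 235 in Nrp1-IP over DCC-IP (165 higher, 70 lower). In the same order, DESeq2 called 1032, 966 and 705. With MAP1B taken out, 696 (623 higher, 73 lower), 520 (353 higher, 167 lower) and 443 (106 higher, 337 lower) were called. Library size alone gave 308 (141 higher, 167 lower), 518 (351 higher, 167 lower) and 254 (209 higher, 45 lower), and RLE 213 (44 higher, 169 lower), 350 (85 higher, 265 lower) and 236 (191 higher, 45 lower). No filter gave 882 in Nrp1-IP over Input and 484 in Nrp1-IP over DCC-IP, and 1 fit of all 9 libraries gave 780 in DCC-IP over Input and 125 in Nrp1-IP over Input. Leaving out a library gave 0 to 250, 0 to 441 and 74 to 346. The 0 came without DCC-IP 1, where 1554 genes had an unadjusted p under 0.05, and without Nrp1-IP 1, where 1061 had.

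The replicate block gave 715, 556 and 369 calls. It changed the sign of NFIC in each comparison (-0.46, 0.10 and 0.25) and brought NFIA in Nrp1-IP over Input past the threshold (-1.44, adjusted p = 0.0249, edgeR), as DESeq2 (-1.68) and no filter (-1.62) did. It changed no other call of a member. The ratios of NFIB to NFIA, NFIC and NFIX had exact p of 0.25, 0.5 and 0.25 within replicate numbers, the first and last being the smallest that 3 pairs allow.

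NFIB in DCC-IP over Input was -0.80 with library size alone, 0.085 with MAP1B taken out and -0.89 with no filter, and in Nrp1-IP over DCC-IP -0.77 with MAP1B taken out. With MAP1B taken out, NFIA and NFIX in DCC-IP over Input were 0.30 and 0.64, and NFIC in Nrp1-IP over Input was 0.024 (0.022 with library size alone). Without 1 library, DCC-IP over Input ranged from -1.19 to -0.66 for NFIB, from -1.32 (without DCC-IP 2) to 1.50 for NFIC and from -1.45 to 0.33 for NFIX, which was above 0 without DCC-IP 2, DCC-IP 3 or Input 1. Nrp1-IP over Input ranged from -1.26 to -1.06 for NFIB, past the threshold only without Input 3, and from -0.79 to 0.55 (without Input 3) for NFIC. Nrp1-IP over DCC-IP ranged from -0.084 to 0.34 for NFIB, from -0.87 to 0.19 (without DCC-IP 3) for NFIA and from -1.24 to 1.22 (without DCC-IP 2) for NFIC. Of the 5 mRNAs most like NFIB, 1 was shared under Spearman's rho and 1 under library size alone. The cause of these shifts was not tested. NFIB in Nrp1-IP over DCC-IP lay between -0.77 and 0.12 over the 7 alternatives that kept every library. The other fold changes of members and the ratios kept their direction and their side of the threshold. Over those 7 alternatives, MEIS1 in DCC-IP over Input passed in 6, SOX4 in Nrp1-IP over Input in 6 and SOX11 in Nrp1-IP over DCC-IP in 4. NFIC and NFIX had counts as low as 5 and 22 in a library, and how far depth limits their tests was not tested.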
